A study of Mus musculus with 6 samples.

Results

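The core circadian clock genes of the mouse retina were examined as a set of 10 named genes: Clock, Arntl, Npas2, Per1, Per2, Per3, Cry1, Cry2, Nr1d1 and Dbp. They were chosen by gene symbol, and all 10 were found among the 15465 genes of the tables. The samples were wild-type C57BL6/J retina with no treatment named in the labels, in 3 biological replicates, each a pool of 5 mice. The titles give each pool 2 technical replicates that share 1 column of values, so n was 3 throughout, and the pools are called pool 1, 2 and 3. The source labels number the samples in another way, in which each source stands in 2 of the 3 pools. The titles were followed, and if the source labels were right the pools would not be independent. Neither the age of the mice nor the time of day or the light at collection is given in the labels. With 1 group and 1 unknown time there was no comparison between conditions. What could be compared was the level of one clock gene with another, and the agreement of the pools.

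The clock of mammalian cells is a loop of transcription and repression. CLOCK, or its relative NPAS2, pairs with the product of Arntl, also called BMAL1, and the pair binds E-box sequences and activates the Per and Cry genes, whose proteins return to the nucleus and block the pair. The same pair activates Nr1d1, which encodes the repressor REV-ERB alpha, and Dbp. REV-ERB alpha binds elements called RORE and represses Arntl, while DBP activates genes with a D-box, Per genes among them. In mouse peripheral tissues Arntl, Npas2 and, more weakly, Clock have their highest mRNA from late night to dawn and are called morning-phase here. Nr1d1, Dbp, Per1, Per2, Per3 and Cry2 reach their highest mRNA between midday and early night and are called evening-phase here. Cry1 peaks later in the night and was put in neither class. Phases in the retina can differ from these. The retina keeps its own rhythm, and many of its cell types hold the clock.

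Elements of this loop can be read in promoter sequences of the clock genes themselves, which are shown because the loop is named for them. RefSeq promoters of GRCm38.p6, each running from 250 bases before to 50 after a start site, matched 9 of the 10 genes by symbol, with more than 1 start for Clock, Arntl and Per1. No entry was matched for Per2. The stretches below hold the matches, 5′ to 3′ on the gene's strand, with the matched letters in capitals.
Per1, chr11:69098761-69098839, plus strand, E-box and then a RORE core: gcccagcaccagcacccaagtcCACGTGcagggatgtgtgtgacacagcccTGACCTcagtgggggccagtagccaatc
Per3, chr4:151044794-151044892, minus strand, D-box at both places: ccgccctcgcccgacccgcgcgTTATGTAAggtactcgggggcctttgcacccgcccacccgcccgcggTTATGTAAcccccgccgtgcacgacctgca
Cry1, chr10:85185087-85185155, minus strand, E′-box and then E-box: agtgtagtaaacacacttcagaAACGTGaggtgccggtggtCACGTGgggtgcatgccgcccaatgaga
Cry2, chr2:92434208-92434257, minus strand, E′-box: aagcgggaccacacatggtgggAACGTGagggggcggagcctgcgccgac
Nr1d1, chr11:98775378-98775427, minus strand, E′-box: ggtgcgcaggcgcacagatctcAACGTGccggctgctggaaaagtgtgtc
Clock, chr5:76303594-76303643, minus strand, RORE core: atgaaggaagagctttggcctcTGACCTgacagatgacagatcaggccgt
Arntl, chr7:113207528-113207557, plus strand, RORE core: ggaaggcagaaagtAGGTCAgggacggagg

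The letters searched on both strands were CACGTG for the E-box, CACGTT for the E′-box, TTATGTAA for the D-box, AGGTCA for the RORE core and TGACGTCA for the cAMP response element. Matches on the opposite strand read AACGTG and TGACCT above, and no match overlapped another. An E-box stood in 7.15% of all 32851 promoter windows. Counted by gene, 8.09% of the 27025 genes with a window had it in at least 1, as did Cry1 and Per1 (2 of 9). The E′-box stood in 4.68% of windows and 5.44% of genes, and in Cry1, Cry2 and Nr1d1 (3 of 9). The D-box was in 0.938% of windows and 1.11% of genes, and Per3 (1 of 9) held it at positions -205 and -158 from its start site. The RORE core was in 16.3% of windows and 18.1% of genes, and in Arntl, Clock and Per1 (3 of 9). These are the genes with more than 1 window (2, 3 and 2), and each had its matches in 1 window only. The cAMP response element was in 1.79% of windows and 2.03% of genes, and in none of the 9 genes. Npas2 and Dbp had no match in these windows. In the GENCODE M21 annotation the Arntl stretch lay in an exon, its core at position 32 from the start site, and the Clock and Per1 stretches lay inside the same genes and outside their exons. The Per3 stretch lay outside Per3, within the span of Camta1 and in none of its exons, and the Cry1, Cry2 and Nr1d1 stretches lay upstream of their genes and in no annotated gene. A match is a description of the letters and not a measured binding site.

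Levels are given in RPKM, reads scaled by transcript length and by library size, a unit inferred from the values that allows genes to be compared per length. The 10 genes spanned from 0.597 to 117 RPKM in mean level, with a median of 16.6 RPKM, beside a median of 9.06 RPKM over the 12562 genes whose mean was at least 1 RPKM. Of the 10 genes, 9 reached that mean, and Arntl did not. The 6 evening-phase genes had a median of 23.3 RPKM and the 3 morning-phase genes 1.04 RPKM. The latter is the mean of Npas2, the middle of the 3 genes, with Clock above it and the row of Arntl below.

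**Figure D1:**
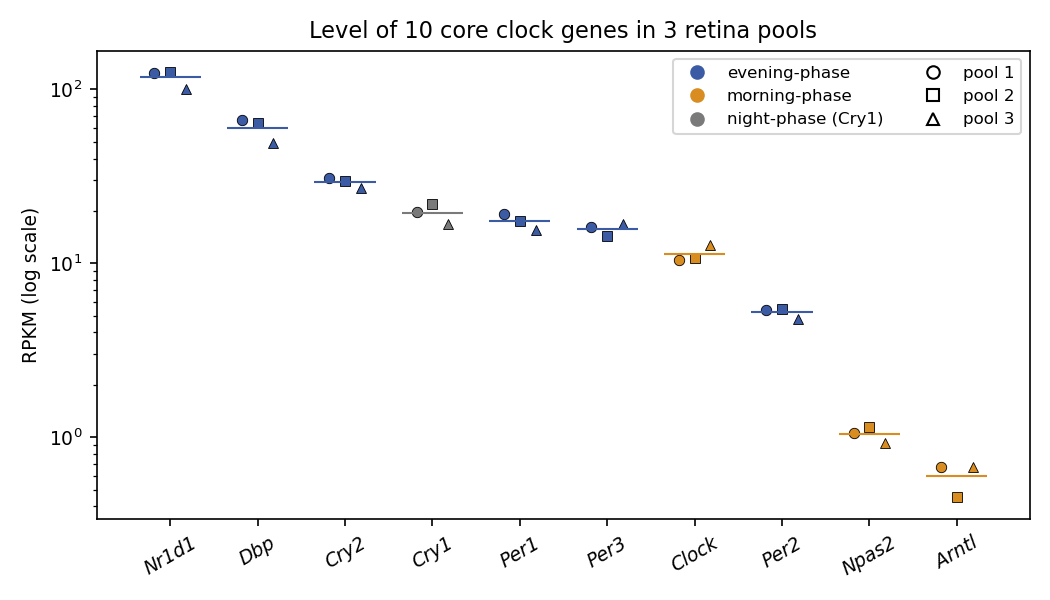
RPKM on a log scale (vertical axis) of the 10 core clock genes (horizontal axis, in order of mean level). Each gene has 1 point per pool, the horizontal line is the mean, and the colour is the phase class. Nr1d1 and Dbp stand at the top, Npas2 and the row of Arntl at the bottom, and the points of a gene lie close together beside the distance between most genes.

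Among the activators, Clock, a basic helix-loop-helix PAS protein and the partner of BMAL1, had 10.5, 10.7 and 12.8 RPKM in pools 1, 2 and 3, a mean of 11.3 ± 1.29 RPKM (SD, n = 3). Npas2, which can stand in for CLOCK, had 1.05, 1.14 and 0.93 RPKM. Pool 3 was the highest of the 3 for Clock and the lowest for Npas2. On the log2(RPKM + 0.1) scale Clock exceeded Npas2 by 3.32 ± 0.28, a 9.99-fold difference seen in 3 of 3 pools.

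The row of Arntl, the third activator, had 0.67, 0.45 and 0.67 RPKM, a mean of 0.597 ± 0.127 RPKM (SD, n = 3). The row of Arntl2, its paralog, had 25.96, 28.18 and 22.95 RPKM. The row of Arntl2 stood above that of Arntl in each pool. Both symbols belong to a class of names, called digit-extended here, in which 1 whole symbol is the start of another followed by a digit. The tables hold 2656 such symbols, 2088 of them among the 12562 genes tested. They made up 627 of the 683 genes called as varying between pools in the test described further on. Another setting of that test called 0 genes. Arntl is the 1 gene of the 10 with such a symbol. Whether the value under Arntl is that of the Arntl transcript was not tested, and the phase difference and the ratios to Arntl are also given below with the row of Arntl2.

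Per1, Per2 and Per3 encode the PERIOD proteins, which carry the repression together with the cryptochromes. Per1 had 19.3, 17.4 and 15.6 RPKM, a mean of 17.4 ± 1.85 RPKM (SD, n = 3). Per3 had 16.1, 14.4 and 16.8 RPKM, a mean of 15.8 ± 1.21 RPKM. The ranges of Per1 and Per3 overlapped, with Per1 higher in pools 1 and 2 and Per3 higher in pool 3. Their difference was 0.14 ± 0.21 on the log2 scale (SD, n = 3), smaller than its spread. An exact sign-flip permutation test over pools, two-sided, gave p = 0.5, where the smallest p that 3 pools allow is 0.25, so a difference could not have been called. In contrast, Per2 had 5.38, 5.44 and 4.81 RPKM, a mean of 5.21 ± 0.348 RPKM, below the other Per genes in each pool. Per1 exceeded Per2 by 1.72 ± 0.09 on the log2 scale, or 3.29-fold.

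Cry1 and Cry2 encode the cryptochromes, relatives of light-driven DNA repair enzymes that block the activator pair. Cry2 had 31.1, 29.6 and 27.1 RPKM, a mean of 29.2 ± 2.04 RPKM (SD, n = 3). Cry1 had 19.65, 21.96 and 16.87 RPKM, a mean of 19.5 ± 2.55 RPKM. Cry2 was the higher in 3 of 3 pools and the ranges did not overlap. The difference of Cry1 from Cry2 was -0.59 ± 0.14 on the log2 scale. As deposited, the SD was 13.1% of the mean for Cry1 and 6.98% for Cry2, and Cry1 was highest in pool 2 and Cry2 in pool 1. With the scaling described further on, the SD on the log2 scale was 0.085 for Cry1 and 0.11 for Cry2. Cry1 was then nearly level in pools 1 and 2 (19.98 and 20.13 RPKM).

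Nr1d1, the RORE repressor of the second loop, was the most abundant of the 10 genes, with 124.6, 125.8 and 101 RPKM and a mean of 117 ± 14 RPKM (SD, n = 3). It ranked 256 of 15465 genes by mean level. Its relative Nr1d2, which encodes REV-ERB beta, had 17.5, 18.7 and 20.3 RPKM. Nr1d1 exceeded Nr1d2 by 2.63 ± 0.27 on the log2 scale, or 6.17-fold. The pools ran opposite ways, with pool 3 lowest for Nr1d1 and highest for Nr1d2. Nr1d1 overlaps Thra, the thyroid hormone receptor alpha gene on the other strand, over 263 (8.55%) of its 3077 annotated exonic bases. Thra had 134.2, 125.9 and 100.1 RPKM, values close to those of Nr1d1 in each pool. Whether the counting used strand is not given in the sources used here, and without strand the reads of the shared bases cannot be told apart.

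Dbp, the D-box output factor, was second with 66.4, 63.8 and 49.2 RPKM, a mean of 59.8 ± 9.28 RPKM (SD, n = 3), and ranked 688 of 15465 genes. All 3 values lay below the lowest value of Nr1d1 and above the highest of Cry2. Dbp shares 539 (18.01%) of its 2993 exonic bases with Sphk2 on the other strand, and Sphk2 had between 6.09 and 6.93 RPKM.

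The order of the 10 genes was nearly the same in each pool. From high to low mean level it ran Nr1d1, Dbp, Cry2, Cry1, Per1, Per3, Clock, Per2, Npas2, Arntl. Of the 9 neighbouring pairs in this order, 8 had the same sign in 3 of 3 pools, and the pair of Per1 and Per3 did not. The ranges of Cry1 and Per1 overlapped although Cry1 was higher in each pool, by 0.16 ± 0.16 on the log2 scale. The other 7 neighbours did not overlap. The widest step was from Per2 to Npas2, with 2.22 ± 0.05 on the log2 scale, a 4.66-fold difference. The exact sign-flip permutation test gave p = 0.25, its smallest value here, for every pair but Per1 and Per3. The pairs were formed by sorting on the means of these same pools. With 3 pools this test gives 0.25 whenever the signs agree, so it adds nothing to the count of signs. As a description across the 10 genes, which are not independent replicates, the rank correlation of pool 1 with pool 2 was 1.0 and that of pool 3 with either was 0.988.

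The difference between the phase classes was then taken within each pool, as the median of log2(RPKM + 0.1) over the evening-phase genes less that over the morning-phase genes. It was 4.42, 4.20 and 4.38 in pools 1, 2 and 3, a mean of 4.33 ± 0.12 (SD, n = 3), so evening-phase genes were higher in each pool. No test was made of this score, because the genes were chosen by name. In each pool the morning-phase median was the value of Npas2, so the difference and its small SD rest on 1 morning-phase gene. The size of the difference hangs on the activators. It was 2.67 without Arntl, and 1.01 with the row of Arntl2 put in place of that of Arntl, which makes Clock the middle gene. The use of the Arntl2 row was chosen after the values were seen. Per gene, 5 of the 6 evening-phase genes had a mean above the 11.3 RPKM of Clock, and all but Per2 were above each of the 3 morning-phase genes in each pool. With the row of Arntl2 in place of that of Arntl, Per1 and Per3 also lay below a morning-phase gene in each pool.

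Of 7 pairs of clock genes compared, those of the evening-phase repressor and output gene with the row of Arntl differed most. Nr1d1 exceeded the row of Arntl by 7.34, 7.84 and 7.04 on the log2 scale in pools 1, 2 and 3, a mean of 7.40 ± 0.40. Dbp exceeded it by 6.43, 6.86 and 6.0, a mean of 6.43 ± 0.43. With the row of Arntl2 in its place the means were 2.18 and 1.21. The sign was the same for either row, and the size was not. With the row of Arntl2 these pairs no longer differed most, as Clock to Npas2 (3.32) and Nr1d1 to Nr1d2 (2.63) were larger.

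**Figure D2:**
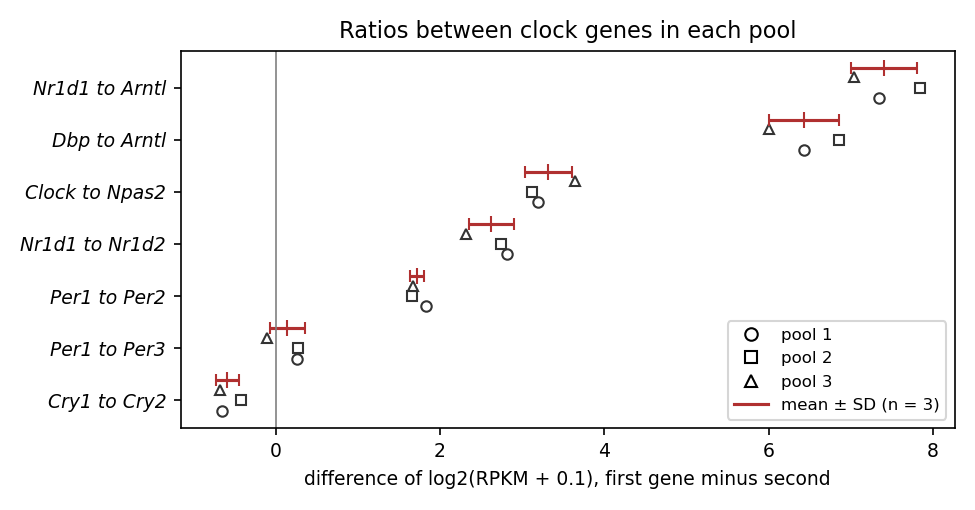
Difference of log2(RPKM + 0.1) between the 2 genes of each pair (horizontal axis) for 7 pairs of clock genes (vertical axis), with 1 point per pool and, above the points, the mean and SD over 3 pools. The difference of Per1 from Per3 lies across 0, that of Cry1 from Cry2 is below 0 in each pool, and the pairs with Arntl lie farthest to the right.

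The pools were next compared gene by gene after scaling by a trimmed mean of log ratios. A prior variance from genes of like level was taken from limma, and an F test computed outside limma set each gene's variance against it. Genes were called as varying between pools at a Benjamini-Hochberg adjusted p under 0.05. P-values given as in limma are from this F test. Of 12562 genes 683 were called, or 5.44%. Of the 9 clock genes tested 0 were called, with adjusted p between 0.993 and 0.999 in limma. An unadjusted p under 0.05 in limma was reached by 0 of the 9 and by 1051 (8.37%) of all genes tested, and with a non-robust prior by 0 of the 9 and by 704 (5.6%) of all. At these shares 9 genes are too few for a count of 0 to set them apart from other genes. The SD over pools was 0.11 on the log2 scale at the median of the 9 genes and 0.15 at the median of all genes tested, and 5 of the 9 lay below the latter. Npas2 had the smallest SD of them (0.05) and Clock the largest (0.25). The row of Arntl was not tested, and its SD was 0.37. Without digit-extended symbols 98 of 10474 genes (0.936%) were called, and again 0 of the 9.

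The deviation of each pool from a gene's mean was then read by phase class. In pool 1, 6 of 6 evening-phase genes lay above their own mean, with a median of 0.12 on the log2 scale, beside 50.9% of all genes tested. The same held for 9 of all 10 clock genes, Clock being the exception, so it was not confined to 1 phase class. Among the evening-phase genes Dbp (0.19) and Per1 (0.18) had the largest deviations there and Per3 (0.057) the smallest. In pool 2, 0 of 6 lay above, with a median of -0.083, beside 51.2% of all genes tested. In pool 3 it was 1 of 6, Per3, with a median of -0.032, beside 49.9% of all. The count for pool 2 depends on the scaling, since 5 of 6 lay above with the values as deposited, where the median was 0.041. The share of all genes above their own mean was not computed as deposited. Pool 2 was then the lowest for 1 of 6 evening-phase genes and for 14.4% of all genes tested. As deposited, pool 3 was the lowest for 5 of 6 evening-phase genes and for 54.6% of all genes tested.

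Morning-phase genes did not share 1 pattern. Their median deviation was 0.039, -0.20 and 0.25 in pools 1, 2 and 3. Clock had -0.082, -0.20 and 0.28. The row of Arntl had 0.18, -0.43 and 0.25, and Npas2 had 0.039, 0.011 and -0.050. Pool 3 was thus the highest for Clock and Arntl and the lowest for Npas2. Without Arntl the medians were -0.021, -0.095 and 0.12.

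Transcript length moved with these deviations. Over genes tested without digit-extended symbols, those under 2000 bases had a median deviation of 0.11 in pool 2 and -0.09 in pool 3, and those of 6000 bases or more had -0.18 and 0.18. Clock, with a transcript of 7478 bases, and Per3, with 5999, are the longest of the 10. With a trend on length removed, the deviation of Clock in pool 3 was 0.14 and that of Per3 was 0.09. In pool 1, 6 of 6 evening-phase genes then lay above their own mean, with a median of 0.10. The same held for 9 of all 10 clock genes, again without Clock. The share of all genes above their own mean was not computed with the trend removed. As scaled, pool 2 was the lowest pool for 4 of 6 evening-phase genes and pool 3 for 2. Of all genes tested, pool 2 was lowest for 34.1% and pool 3 for 36.0%. With the trend removed, pool 3 was the lowest for 4 of 6 and pool 2 for 2, and the share of all genes was not computed.

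Markers of tissue next to the retina also differed between pools. The 7 lens markers summed to 563, 260 and 1492 RPKM in pools 1, 2 and 3, and the 5 pigment epithelium markers to 371, 351 and 188 RPKM. The 4 cornea markers summed to 18.5, 25.4 and 11.7 RPKM and the 3 skeletal muscle markers to 5.6, 17.3 and 4.02 RPKM. Single markers did not all follow these sums: Rpe65 of the pigment epithelium was highest in pool 2 (6.25, 20.06 and 6.74 RPKM), and of the cornea markers Krt12 was lowest there (2.5, 1.24 and 3.36 RPKM) and Dcn highest in pool 1 (10.72, 9.0 and 1.97 RPKM). No marker of these lists was at 0. The 5 cone markers had median deviations between 0.01 and 0.03 in the 3 pools, and the 7 rod markers between -0.02 and 0.04. Medians of the other retinal classes moved more. For bipolar markers they were 0.085, -0.081 and -0.007 in pools 1, 2 and 3, and for ganglion cell markers 0.095, -0.021 and -0.032. For Muller glia they were 0.066, -0.006 and 0.016, and for amacrine markers 0.045, 0.068 and -0.11. Single markers of a class did not all follow its median. The part of adjacent tissue in the clock gene values was not tested. In whole tissue, more cells with a transcript and more transcript per cell cannot be told apart.

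**Figure D3:**
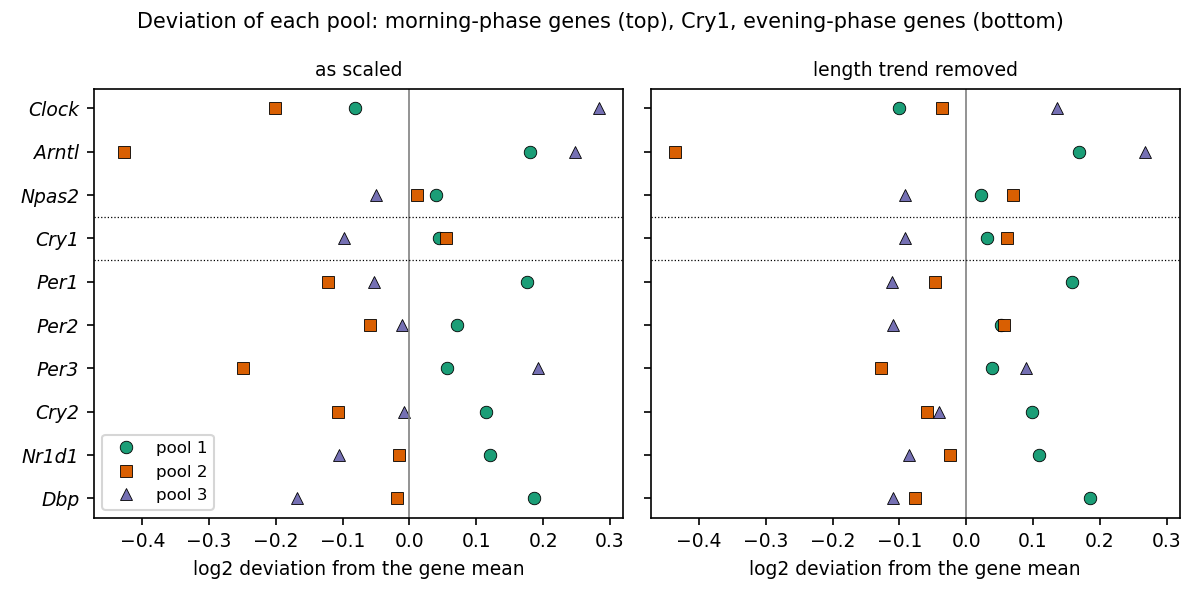
Deviation of each pool from the gene's mean over pools on the log2 scale (horizontal axis) for the 10 genes (vertical axis), after scaling (left panel) and with the length trend also removed (right panel). Pool 1 lies to the right of 0 for every gene but Clock in both panels, and pool 3 moves toward 0 for Clock and Per3 in the right panel.

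Other genes of the clock pathway were taken from a list of 37, all of them found, with Ciart and Cipc under older symbols. Their means ran from 1.42 to 59.1 RPKM with a median of 16.5 RPKM, and 23 of 37 lay above the median of all genes tested. In limma 0 of 37 were called with all genes, with adjusted p between 0.148 and 0.999, beside the 5.44% called of all genes. An unadjusted p under 0.05 was reached by 2 of 37, beside 8.37% of all genes. With the non-robust prior, which called 0 of all 12562 genes, it was reached by 0 of 37, beside 5.6% of all.

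Factors that share a DNA element with a core gene were compared with it. Among the D-box factors, Tef, an activator like DBP, had 60.9, 60.2 and 56.1 RPKM, close to Dbp. Hlf, the third activator of that family, had a mean of 24.1 ± 1.5 RPKM (SD, n = 3), and the D-box repressor Nfil3 had 9.79 ± 1.96 RPKM. Each of the 3 activators thus stood above the repressor in each pool. Among the RORE factors the activating receptors Rora and Rorb had means of 31.8 ± 1.84 RPKM and 19.8 ± 2.45 RPKM. Both were below the repressor Nr1d1 and above the repressor Nr1d2 in each pool.

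Among the E-box repressors, Bhlhe41, also called DEC2, had 46.9, 27.8 and 44.5 RPKM. It stood apart in pool 2, where its deviation was -0.60 on the log2 scale. It passed the threshold in limma without digit-extended symbols (adjusted p = 0.0222) but not with all genes (adjusted p = 0.148). Bhlhe41 shares 1280 (19.05%) of its 6720 annotated exonic bases with a locus on the other strand, for which no value was found. Its relative Bhlhe40 had 17.3, 18.2 and 14.01 RPKM, with no such gap, and Ciart, which encodes CHRONO, had 3.06, 3.97 and 2.37 RPKM. Usp2, a deubiquitinase under clock control, was also lowest in pool 2, with 31.3, 21.1 and 29.7 RPKM and an adjusted p of 0.352 in limma. Its symbol is digit-extended. The kinases that phosphorylate the PERIOD proteins had means of 36.6 ± 4.4 RPKM for Csnk1d and 29.96 ± 3.76 for Csnk1e, above the mean of each Per gene.

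**Figure D4:**
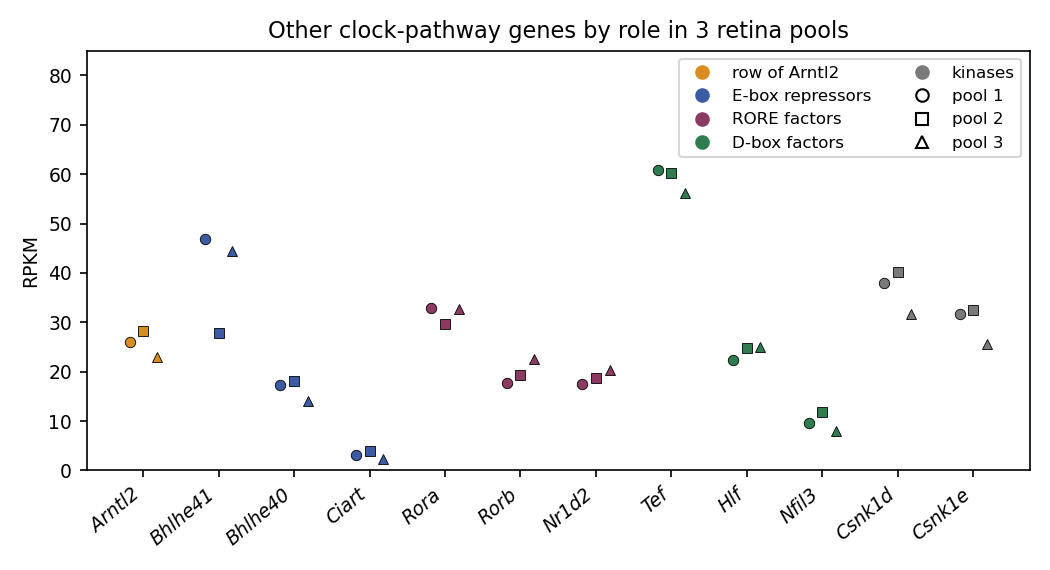
RPKM (vertical axis) of 12 further clock-pathway genes (horizontal axis), coloured by role, with 1 point per pool. Tef is the highest, and Bhlhe41 has pool 2 at 27.8 RPKM, below its 2 other pools.

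Genes of nearest log2 values over the 3 pools were sought for 4 of the clock genes, a likeness that rests on 3 points and mostly on level. For Nr1d1 they were Bin1, Cabp4 and Thra, at distances of 0.10 to 0.11 on the log2 scale. For Dbp they were Atp13a2, Fance and Psmd3, and for Per1 Npr2, Abcb8 and Hpcal4. For the row of Arntl they were Pcdhgc5, Fcamr and Erbb4, at 0.16 to 0.17. Within a distance of 0.2 there were 17 genes for Nr1d1, 41 for Dbp, 89 for Per1 and 6 for Arntl.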

How the data were processed

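RNA sequencing of pooled wild-type retina gave 3 deposited tables of 15468 rows, 1 per biological replicate. Per the submitters' processing notes, the authors used GSNAP and HTSeq on mm9, with versions, annotation and strand setting not given in the sources used here. The deposited values were taken as RPKM from the values alone: multiplied by transcript length in kb, they added up to 785335, 828466 and 728590. FPKM is not told apart from RPKM by this, and read depth is unknown, so no interval or floor is given. Symbols on more than 1 row (3, with identical values) were kept once.

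Values were divided by trimmed-mean factors of 0.983, 1.09 and 0.932 (30% of log ratios and 5% of means trimmed at each end) for tests and deviations, and printed levels are as deposited. Folds are on log2(RPKM + 0.1), which understates differences of low genes. Variation between pools was tested across all genes whose mean was at least 1 RPKM, with a robust trended prior variance from limma 3.58.1 (R 4.3.3). The F test against it was computed outside limma, with Benjamini-Hochberg adjustment. It gave every gene the largest prior degrees of freedom of the robust fit. The test was run on simulated data before use. P-values measure the spread between pools. Lengths are medians over RefSeq-linked GENCODE M21 transcripts. Promoters are RefSeq, GRCm38.p6, used for sequence only.

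The members and lists were chosen with earlier results of these data known. Named genes were the 10 members, genes of the wider list by role (at most 12, of which 1 is not reported here), genes of it that were called, and the 3 nearest genes of 4 members. Usp2, Arntl2, Thra, Sphk2, Rpe65, Krt12, Dcn, Opn4 and Th were named after their values were seen.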

Additional observations from a re-analysis of the deposited data

How the results depend on the processing

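On the log2 scale, the evening-phase less morning-phase difference (4.33) was 3.55 with a pseudocount of 1, 4.50 with values multiplied by transcript length, 2.67 with Cry1 among the morning-phase genes, 3.64 with means in place of medians, 2.67 without Arntl and 1.01 with the row of Arntl2. Multiplying by length gave -0.98 for Cry1 to Cry2, 1.41 for Per1 to Per2, 4.23 for Clock to Npas2, 6.0 for Dbp to Arntl and 1.85 for Nr1d1 to Nr1d2. It turned Per1 to Per3 to -0.22. A pseudocount of 1 gave 1.57 for Per1 to Per2, 2.59 for Clock to Npas2, 6.20 for Nr1d1 to Arntl and 5.24 for Dbp to Arntl. The row of Arntl2 gave 2.18 and 1.21 for the last 2. The evening-phase deviation of pool 2 was 0.041 without scaling, and the morning-phase deviation of pool 1 was -0.021 without Arntl. Genes varying between pools (683) numbered 0 with the non-robust prior, 98 without digit-extended symbols, and from 306 to 480 with 1 pool left out, 306 without replicate 2 and 420 without replicate 3. The number of clock genes called was 0 under each of the 9 alternatives, which shows no stability, since the non-robust prior called no gene at all and the set is small. Of the other clock-pathway genes it was 1, Bhlhe41, without digit-extended symbols. The use of the Arntl2 row, the removal of the length trend, and the deviations without Arntl were chosen after seeing the data. Why these values moved: the cause was not tested. No paired analysis was possible because there was 1 group. Unknown depth leaves the counting error of Arntl and Npas2, the lowest of the 10, without an estimate.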

Other observations

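Opn4 and Th, genes of light and dopamine signalling in the retina, were below most of the clock genes in each pool. Both were above Npas2 and the row of Arntl in each pool. Opn4, the melanopsin of intrinsically photosensitive ganglion cells, had 2.92, 2.95 and 2.17 RPKM in pools 1, 2 and 3. Th, the tyrosine hydroxylase of dopaminergic amacrine cells, had 2.02, 2.44 and 1.78 RPKM, and its symbol is digit-extended. Both were lowest in pool 3 as deposited, as were 54.6% of all genes tested.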
